A study of Mus musculus with 12 samples.

Results

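The heat shock chaperones described here are 10 of the 17052 genes in the deposited expression table of mouse left ventricle: Hspa1a, Hspa1b, Hspa8, Hspb1, Hsp90aa1, Hsp90ab1, Dnaja1, Dnajb1, Hsph1 and Hspd1. They were found by gene symbol, and every symbol matched a single row. The members were chosen from the measured values of these same mice, because Hspa1a and Hspa1b were high in 2 of 3 TAC+control mice. The TAC+control values of that pair are therefore a description and carry no test. Besides HSP70 and HSP90 genes, the set holds a small heat shock protein gene, DNAJ co-chaperone genes, an HSP110 gene and the mitochondrial HSP60 gene.

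Messenger RNA was sequenced from the left ventricles of 12 C57BL/6 mice, each library from a separate mouse, with 3 mice in each of 4 groups. Surgery was done at the age of 8 weeks and tissue was taken at 12 weeks in all groups. TAC+pimobendan mice had transverse aortic constriction (TAC), in which a clip narrows the aorta and the left ventricle works against a raised pressure, and received pimobendan orally at 1 mg/kg/day for 4 weeks. Pimobendan is a drug for heart failure that sensitizes the contractile proteins to calcium and inhibits phosphodiesterase. TAC+control mice had the same constriction without the drug. Sham+pimobendan mice had the drug at the same dose after an operation without the clip, and Sham+control mice had that operation and no drug. Every group, sham groups included, had an opened neck and a stripped thymus, so no group represents an unoperated heart. The study asked how pimobendan changes the transcripts of the ventricle under pressure overload.

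Heat shock proteins are molecular chaperones. HSP70 proteins bind unfolded stretches of other proteins and release them in a cycle driven by ATP, which DNAJ (HSP40) co-chaperones start and HSP110 proteins help to renew by exchanging the nucleotide. HSP90 proteins act later and hold kinases and receptors in a form that can be activated, while HSP60 folds proteins inside mitochondria and small heat shock proteins keep damaged proteins soluble. Under stress, heat shock factor 1 (encoded by Hsf1) binds repeats of the unit NGAAN in promoters and switches on the inducible members, Hspa1a and Hspa1b above all. In heart muscle, HSP70 and small heat shock proteins are known for protecting against ischaemia and protein damage.

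The promoters of the HSP70 pair are shown because both genes carry the high values and are near-identical copies. The sequences are the 250 bases before the transcription start in RefSeq (GRCm38.p6), and capitals mark the heat shock element searched for, GAANNTTC or TTCNNGAA, on either strand, where matches may overlap. Hspa1a is at chr17:34972157-34972406 and Hspa1b at chr17:34959239-34959488, both on the minus strand, and neither overlaps an exon annotated in GENCODE M21.
Hspa1a: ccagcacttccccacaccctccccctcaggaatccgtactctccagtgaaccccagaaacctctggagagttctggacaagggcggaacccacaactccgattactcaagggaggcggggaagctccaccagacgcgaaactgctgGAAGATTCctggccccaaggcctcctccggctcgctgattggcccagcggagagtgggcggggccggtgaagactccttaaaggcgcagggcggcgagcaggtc
Hspa1b: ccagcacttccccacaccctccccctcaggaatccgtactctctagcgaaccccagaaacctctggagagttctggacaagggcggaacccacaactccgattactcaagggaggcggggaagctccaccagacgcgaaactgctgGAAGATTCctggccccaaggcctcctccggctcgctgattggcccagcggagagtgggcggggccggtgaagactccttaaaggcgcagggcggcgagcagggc
Of these 250 bases, 247 were identical in both promoters. Counted from 1 at the 5′ end, with the Hspa1a base first, the differences were C44T, T47C and T249G, and none fell in the element, which began 104 bases before the start in both.

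The other members with the element are shown for comparison, with at most 30 bases each. In the same order as below, they are at chr1:55088053-55088082 (minus strand), chr4:40722333-40722362 (plus), chr5:135887801-135887830 (plus) and chr5:149636351-149636380 (minus).
Hspd1: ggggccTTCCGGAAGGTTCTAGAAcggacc
Dnaja1: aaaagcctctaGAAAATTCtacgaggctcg
Hspb1: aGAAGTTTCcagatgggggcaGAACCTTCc
Hsph1: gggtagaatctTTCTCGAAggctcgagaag
The Hspd1 stretch held 3 overlapping matches, the first of them 144 bases before the start, and was the only member sequence to hold the element of 3 units in a row (GAANNTTCNNGAA or TTCNNGAANNTTC). It lies in an untranslated first exon of another Hspd1 transcript. The Dnaja1 match lay 124 bases before the start, inside exons of a non-coding Dnaja1 transcript and of the lincRNA Gm6297. Hspb1 had matches 117 and 97 bases before the start, outside annotated exons, and the Hsph1 match lay 33 bases before the start, within an untranslated exon of another transcript. RefSeq promoter sequence was at hand for 7 of the 10 members, and 6 of those 7 held the element; Dnajb1 did not have these letters in its windows. Of all 27025 genes with such a sequence, 3932 (14.5%) held it, and 153 of 32851 sequences (0.466%) held the element of 3 units. A match describes letters and is not evidence of binding, and Hspa8, Hsp90aa1 and Hsp90ab1 had no entry.

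Values were deposited as FPKM, fragment numbers scaled by transcript length and library size, with TPM beside them and no counts, so the depth of the libraries is unknown. Summed FPKM was between 593203 and 643478 per library, and 10809 to 11292 genes reached 1 FPKM. A gene entered the tests if 3 or more libraries had 1 FPKM or more of it, which kept 11415. All 10 members passed, and each had at least 1 FPKM in all 12 libraries. Tests were made with limma on log2(FPKM + 1), so fold changes understate the change of low genes, and a gene was called at a Benjamini-Hochberg adjusted p under 0.05 over all genes tested. All 10 cardiomyocyte markers of a list were present, at a summed 60635 to 75484 FPKM per library, and none of them was at 0. Whole tissue was sequenced, so fewer cells of a type and less RNA per cell cannot be told apart.

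The members ranged widely in level per transcript length. Hspa8, the constitutive cytosolic HSP70 (HSC70), averaged 1105 FPKM over the 12 libraries and ranked 75 among the 17052 genes. Hsp90ab1, the constitutive HSP90 beta, averaged 692 FPKM, Hspb1, the small heat shock protein HSP25 of the mouse, 435 FPKM, and Hspd1, mitochondrial HSP60, 128 FPKM. Hsp90aa1, the inducible HSP90 alpha, averaged 25.6 FPKM. The co-chaperones Dnajb1, Hsph1 and Dnaja1 averaged 14.3, 13.3 and 11.9 FPKM. Hspa1a averaged 12.1 FPKM and Hspa1b 10.5 FPKM, and these averages rest on the TAC+control mice. Hspa8 alone made up 42.9% to 49.2% of the members' summed FPKM in each library.

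The members also differed in how much they varied between mice. The highest of the 12 libraries exceeded the lowest 51.5 times for Hspa1a, 33.1 times for Hspa1b and 5.85 times for Dnajb1. The ratio was 2.66 for Hsp90aa1, 2.22 for Dnaja1, 2.21 for Hspb1, 2.02 for Hsph1, 1.72 for Hspa8, 1.52 for Hspd1 and 1.27 for Hsp90ab1.

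**Figure D1:**
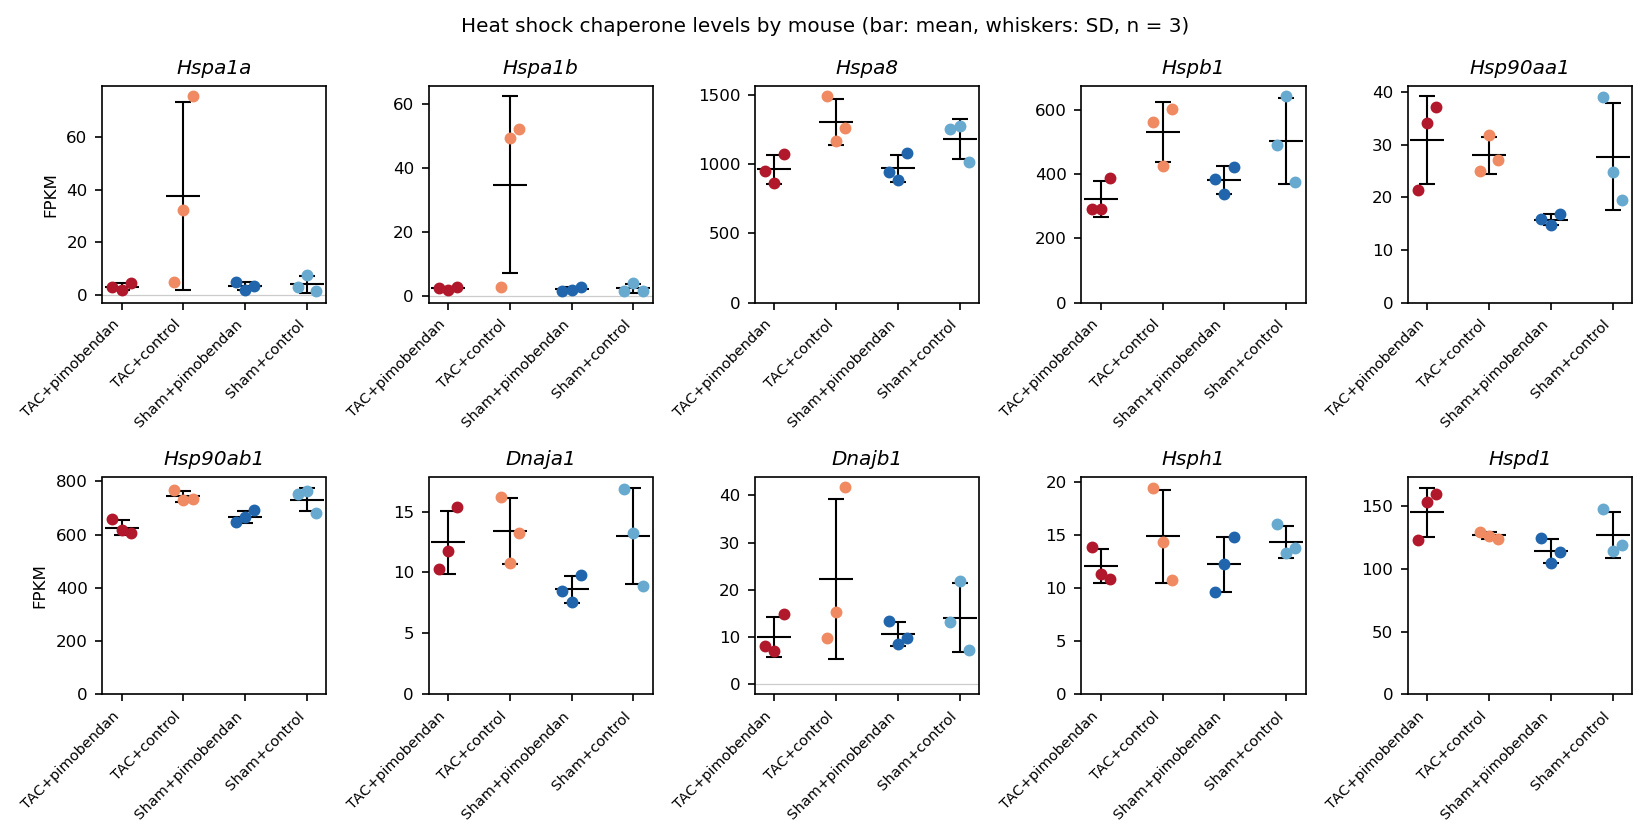
Level of each chaperone gene in FPKM (linear vertical axes that include 0) in 12 mice by group; each point is a mouse, the bar is the group mean and the whiskers are the SD (n = 3). Hspa1a and Hspa1b stand at 32.24 to 75.67 FPKM in 2 TAC+control mice and at no more than 7.65 FPKM in every other mouse, while Hsp90ab1 stays between 604.93 and 768.53 FPKM.

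Hspa1a (NCBI Gene 193740; GRCm38 chr17:34969359-34972156, minus strand) encodes the stress-inducible HSP70. Mice 1, 2 and 3 had 3.07, 1.97 and 4.56 FPKM in TAC+pimobendan, 4.97, 32.24 and 75.67 FPKM in TAC+control, 5.07, 2.01 and 3.49 FPKM in Sham+pimobendan, and 3.13, 7.65 and 1.47 FPKM in Sham+control. TAC+control mice 2 and 3 lay 9.74 and 22.9 times above the median of the other 10 mice, and TAC+control mouse 1 lay within the range of the sham groups. Group means were 3.20 ± 1.30 FPKM in TAC+pimobendan, 37.6 ± 35.7 in TAC+control, 3.52 ± 1.53 in Sham+pimobendan and 4.08 ± 3.20 in Sham+control (SD, n = 3 each). The order of the means was TAC+control, Sham+control, Sham+pimobendan and TAC+pimobendan, and the last 3 overlapped mouse by mouse.

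Hspa1b (NCBI Gene 15511) is the neighbouring copy that encodes a nearly identical HSP70. Its FPKM was 2.51, 1.94 and 2.89 in TAC+pimobendan, 2.93, 49.40 and 52.30 in TAC+control, 1.73, 1.90 and 2.88 in Sham+pimobendan, and 1.74, 3.99 and 1.58 in Sham+control. The same TAC+control mice, 2 and 3, were high, at 22.2 and 23.5 times the median of the other 10, and the highest of those 10 was at 3.99 FPKM. Means were 2.45 ± 0.478 FPKM in TAC+pimobendan, 34.9 ± 27.7 in TAC+control, 2.17 ± 0.621 in Sham+pimobendan and 2.44 ± 1.35 in Sham+control (SD, n = 3 each). Outside TAC+control the groups overlapped.

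The copies cannot be fully told apart by reads. Their coding sequences in GENCODE M21 shared 1918 of 1926 aligned bases (99.6%), and 1716 of 2918 stretches of 50 bases in the Hspa1a transcript (58.8%) also occur in Hspa1b. The deposited table moreover gives Hspa1b a span, chr17:34956429-34972156, that takes in the whole of Hspa1a, against chr17:34956436-34959238 in GENCODE. The split between both genes is thus uncertain: the ratio of Hspa1a to Hspa1b ran from 0.653 in TAC+control mouse 2 to 2.93 in Sham+pimobendan mouse 1. Their sum, which also depends on the unstated handling of shared reads, was 5.58, 3.91 and 7.45 FPKM in TAC+pimobendan, 7.90, 81.64 and 127.97 FPKM in TAC+control, 6.80, 3.91 and 6.37 FPKM in Sham+pimobendan, and 4.87, 11.64 and 3.05 FPKM in Sham+control. The sum again put TAC+control mice 2 and 3 above all others, at 13.7 and 21.4 times the median of the other 10.

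Within TAC+control the pair also had a large spread. The SD of log2(FPKM + 1) within TAC+control was 2.15 for Hspa1b and 1.88 for Hspa1a, which ranked 4 and 8 from the largest of 11415 genes; both were chosen for these values. Dnajb1, with an SD of 1.02, ranked 52 there. Hspa1a and Dnajb1 were also among the more variable genes of Sham+control, with SDs of 0.909 and 0.726 and ranks of 48 and 86.

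The high HSP70 of TAC+control mice 2 and 3 did not extend to most other members. Of the other 8, none had its highest value in mouse 2, and only Dnajb1 did in mouse 3. Dnajb1 (NCBI Gene 81489; chromosome 8) encodes the inducible HSP40 that delivers substrates to HSP70. It had 8.07, 7.13 and 14.87 FPKM in TAC+pimobendan, 9.81, 15.35 and 41.71 FPKM in TAC+control, 13.47, 8.56 and 9.74 FPKM in Sham+pimobendan, and 13.10, 21.85 and 7.35 FPKM in Sham+control. TAC+control mouse 3 stood 1.91 times above the next highest mouse, whereas mouse 2, at 15.35 FPKM, stood below Sham+control mouse 2.

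**Figure D2:**
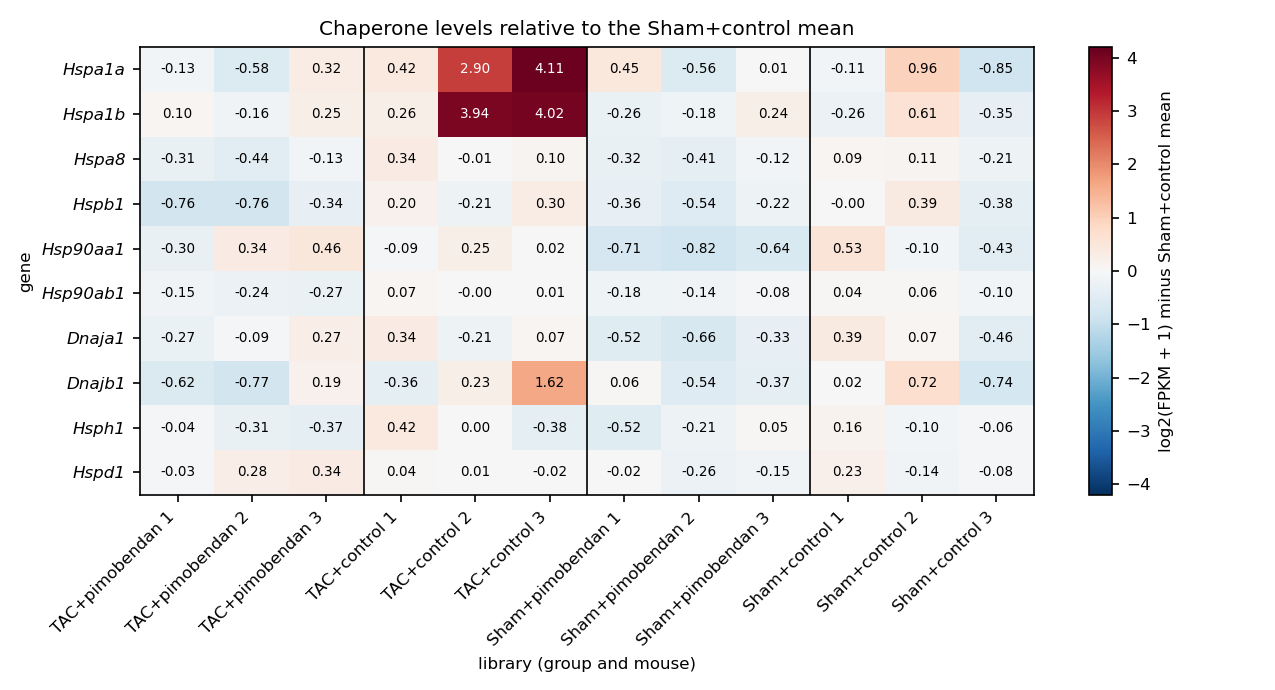
Difference of log2(FPKM + 1) from the Sham+control mean for each chaperone gene (rows) and mouse (columns, by group), with the value printed in each cell and red for higher, blue for lower. TAC+control mice 2 and 3 reach 2.90 to 4.11 for Hspa1a and Hspa1b, Dnajb1 reaches 1.62 in mouse 3, and Hspa8, Hspb1 and Hsp90ab1 are below 0 in all 6 mice given pimobendan.

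Immediate early genes, which respond within minutes to stress and handling, also varied between mice of a group. Their score, the mean over 24 genes of the log2 difference from Sham+control, was -0.904, -1.18 and -0.139 in TAC+pimobendan, -1.31, -1.59 and 0.382 in TAC+control, -0.0189, -0.801 and -0.204 in Sham+pimobendan, and 0.512, 0.653 and -1.16 in Sham+control. In each of the 4 groups the mouse with the highest Dnajb1 was the mouse with the highest score, and the same mouse had the highest Hspa1a. The highest Hspa1b was in that mouse too, except in Sham+pimobendan, where it was in mouse 3. In TAC+control these HSP70 values are those by which the pair was chosen. For Hspa1a and Hspa1b, high TAC+control mouse 3 had the highest score of its group and high mouse 2 the lowest of all 12 mice. All 24 genes of the list were present and tested, and their summed FPKM was 941 to 1983 in TAC+pimobendan, 660 to 2215 in TAC+control, 1239 to 2023 in Sham+pimobendan and 921 to 3151 in Sham+control. Their part in the chaperone values was not tested.

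Markers of blood also differed with TAC+control. All 7 erythroid markers were present, and their summed level was 1154 to 2295 FPKM in TAC+pimobendan, 4213 to 6720 in TAC+control, 462 to 1917 in Sham+pimobendan and 1564 to 3076 in Sham+control, with no marker at 0 in all libraries. TAC+control mouse 1, which had low Hspa1a and Hspa1b, had 4213 FPKM of these markers, and mice 2 and 3 had 6720 and 4272. Of 6 neutrophil markers 5 were listed, at a summed 0.59 to 6.42 FPKM in 11 libraries and 10.5 FPKM in TAC+control mouse 3. Summed T and B cell markers were at most 2.22 FPKM and summed thymus markers at most 0.22 FPKM in every library. The part of blood cells in the result was not tested.

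The study's contrast of overload, TAC+control minus Sham+control, was the one on which the members were chosen, and it is described without tests. The log2 difference was 2.48 ± 0.71 (SE) for Hspa1a and 2.74 ± 0.73 for Hspa1b. Without TAC+control mice 2 and 3, an alternative added after the data were seen that leaves 1 TAC+control mouse, it was 0.42 and 0.26. Dnajb1 stood at 0.50 ± 0.45, and at -0.36 without those mice. The other 7 members lay between 0.0073 (Hspd1) and 0.14 (Hspa8), against standard errors of 0.066 to 0.23. All 10 differences were above 0, a count that is a description only, because this contrast chose the members. Without Sham+control mouse 3, only 4 of the 10 lay above 0, and on the TPM scale 7. The median of all genes was -0.057, and 34.9% of genes lay above 0. No member of either direction separated the groups mouse by mouse, against 3% of genes higher and 9.74% lower. limma called no gene at all in this contrast, 0% of 11415, with 951 at an unadjusted p under 0.05, a smallest adjusted p of 0.205, and 2 calls in a fit of these groups alone.

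What the drug changed under overload was asked by setting TAC+pimobendan against TAC+control. No tested member passed. Hspa8, Hspb1 and Hsp90ab1 were lower in all 3 TAC+pimobendan mice than in every TAC+control mouse, with adjusted p from 0.0523 to 0.0547. These were 3 of the 8 tested members, beside 6.64% of all genes, and none of the 8 was higher without overlap, beside 23.3% of genes. Hspa1a and Hspa1b did not overlap either, but their TAC+control values chose them and are not counted. None of the 8 was called, against 3.27% of all genes, of which 3.15% were higher and 0.114% lower.

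Hspa8 (NCBI Gene 15481; chr9:40801273-40805200, plus strand) had 946.98, 864.29 and 1074.68 FPKM in TAC+pimobendan, 1489.93, 1167.66 and 1263.38 FPKM in TAC+control, 941.08, 886.32 and 1078.96 FPKM in Sham+pimobendan, and 1254.43, 1273.58 and 1018.88 FPKM in Sham+control. The TAC groups did not overlap, while the sham groups did. With 962 ± 106 FPKM in TAC+pimobendan and 1307 ± 166 in TAC+control (SD, n = 3 each), the difference on the log2 scale was -0.44 ± 0.12 (SE), with a 95% confidence interval of -0.70 to -0.18 and a limma adjusted p of 0.0547. Without single libraries the limma adjusted p ran from 0.0503 to 0.183.

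Hspb1 (NCBI Gene 15507; chr5:135887351-135889564, plus strand) had 290.46, 290.55 and 388.91 FPKM in TAC+pimobendan, 564.02, 425.22 and 604.12 FPKM in TAC+control, 384.40, 338.39 and 423.11 FPKM in Sham+pimobendan, and 491.67, 643.14 and 376.57 FPKM in Sham+control. Its lowest TAC+control mouse, number 2, is among the mice with high HSP70. The log2 fold change of TAC+pimobendan (323 ± 56.8 FPKM) over TAC+control (531 ± 93.9 FPKM; SD, n = 3 each) was -0.71 ± 0.19 (95% confidence interval -1.12 to -0.31; limma adjusted p = 0.0523). It was called on the TPM scale, with an adjusted p of 0.0492, and without TAC+control mouse 2 (0.0412) or Sham+control mouse 3 (0.0494). In the other 10 of the 12 fits without a single library it was not called, and the limma adjusted p rose to as much as 0.176.

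Hsp90ab1 (NCBI Gene 15516; chr17:45567778-45573261, minus strand) was the steadiest member, with 656.84, 617.27 and 604.93 FPKM in TAC+pimobendan, 768.53, 729.82 and 735.33 FPKM in TAC+control, 646.08, 664.35 and 691.87 FPKM in Sham+pimobendan, and 750.92, 762.96 and 680.94 FPKM in Sham+control. All 3 TAC+pimobendan mice lay below all 6 mice without the drug. TAC+pimobendan averaged 626 ± 27.1 FPKM and TAC+control 745 ± 20.9 FPKM (SD, n = 3 each), a log2 fold change of -0.25 ± 0.066 (95% confidence interval -0.39 to -0.11; limma adjusted p = 0.0527). It was called without TAC+pimobendan mouse 1 (adjusted p = 0.0319) or Sham+control mouse 1 (0.0489). In the other 10 of the 12 fits without a single library it was not called, and the limma adjusted p rose to as much as 0.170.

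The other 5 tested members had wider or smaller differences. Dnajb1 stood at -0.90 ± 0.45 (95% confidence interval -1.88 to 0.088; limma adjusted p = 0.228) and Hsph1, the HSP110 nucleotide exchange factor, at -0.25 ± 0.19 (adjusted p = 0.419). Hspd1 stood at 0.19 ± 0.11 (adjusted p = 0.322), Hsp90aa1 at 0.11 ± 0.23 (0.797) and Dnaja1, a DNAJ co-chaperone of cytosolic HSP70, at -0.097 ± 0.21 (0.802). The values for Hspa1a and Hspa1b, given with no test since their TAC+control mice chose them, were -2.61 ± 0.71 and -2.68 ± 0.73. Without TAC+control mice 2 and 3 they were -0.55 and -0.20. Over the 8 tested members the median was -0.25, where the median of all genes was 0.095 and 66.0% of genes lay above 0. Of these members, Hspd1 and Hsp90aa1 lay above 0 and the others below. Over all 10 members 8 differences were below 0 and 2 above, with a median of -0.35. That count and median include Hspa1a and Hspa1b and are a description only.

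Summed levels of cell type markers differed in this comparison too, each list fully present and with no gene at 0 in all libraries. Summed FPKM of the 10 cardiomyocyte markers was 60635 to 69369 in TAC+pimobendan and 70816 to 75484 in TAC+control. Single markers of that list were split, with 4 log2 fold changes above 0, 6 below and a median of -0.076. For the 9 macrophage markers it was 357 to 464 in TAC+pimobendan and 328 to 355 in TAC+control, and for the 8 smooth muscle and pericyte markers 302 to 311 in TAC+pimobendan and 266 to 293 in TAC+control. Log2 fold changes were above 0 for all 9 macrophage markers and for 7 of the 8 smooth muscle and pericyte markers. The 7 skeletal muscle markers summed to 2031 to 2173 FPKM in TAC+pimobendan and 2591 to 2786 FPKM in TAC+control. Only 2 of these 7 entered the tests, 1 above 0 and 1 below, so the sum does not describe the list as a whole. None of these summed ranges overlapped, nor did those of the erythroid markers given above. Summed fibroblast, endothelial, adipocyte, atrial muscle, neutrophil and thymus markers did overlap between both TAC groups. Those of T and B cell markers did not, at low levels of at most 2.22 FPKM. The part of these markers in the lower Hspa8, Hspb1 and Hsp90ab1 values was not tested.

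Libraries differed in base composition. Over genes, Spearman's rho of GC content with how far a library departed from the average library was -0.195, -0.510 and -0.518 in TAC+pimobendan, 0.122, 0.00546 and 0.279 in TAC+control, 0.141, 0.359 and 0.524 in Sham+pimobendan, and -0.337, 0.0796 and 0.454 in Sham+control. A negative rho means that transcripts of low GC content were relatively higher. TAC+pimobendan mice 2 and 3 had the lowest values, and Sham+control mouse 1 lay below TAC+pimobendan mouse 1. The median GC content of tested genes was 50.1%. Of the 8 members lower on average in TAC+pimobendan than in TAC+control, Hspb1 (61.7%), Hspa1a (58.9%), Hspa1b (58.1%), Dnajb1 (52.7%) and Hsp90ab1 (51.0%) lie above that median, and Hsph1 (47.3%), Hspa8 (45.9%) and Dnaja1 (41.2%) below it. Hspd1 (46.8%) and Hsp90aa1 (43.7%), which were higher on average, also lie below it. The rho values of TAC+pimobendan overlapped neither those of TAC+control nor those of Sham+pimobendan. In TAC+pimobendan minus Sham+pimobendan, described below, the intervals of Hsp90aa1, Dnaja1 and Hspd1 lay above 0, and all of these genes lie below the median GC content. Hspa8 and Hsph1 lie below that median as well and stood at -0.011 and -0.010 in that comparison. The part of GC content in these values was not tested.

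**Figure D3:**
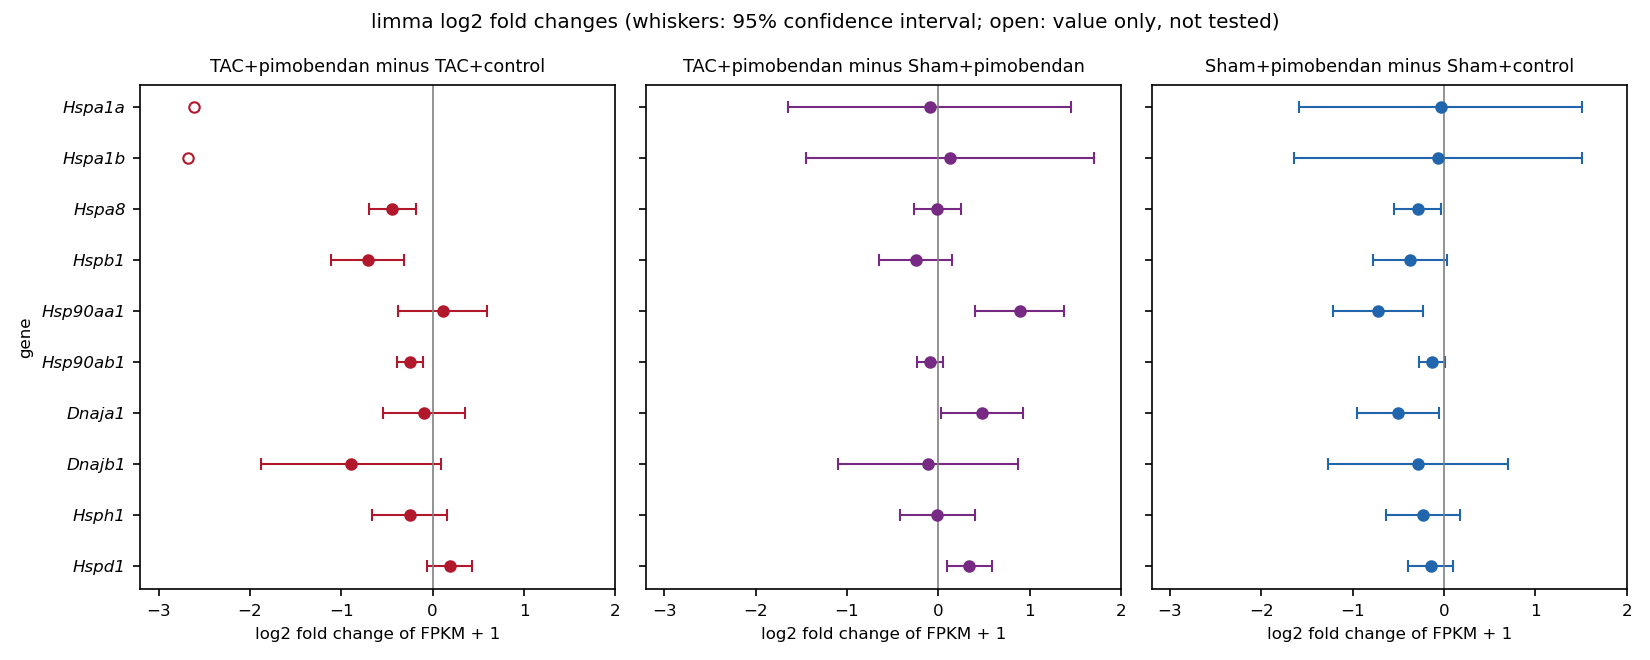
limma log2 fold changes of FPKM + 1 (horizontal axis) of the 10 chaperone genes (vertical axis) in 3 comparisons; filled points are tested values with 95% confidence intervals, and open points are values with no test. In TAC+pimobendan minus TAC+control the intervals of Hspa8, Hspb1 and Hsp90ab1 lie below 0. In TAC+pimobendan minus Sham+pimobendan those of Hsp90aa1 (0.40 to 1.38), Dnaja1 (0.028 to 0.92) and Hspd1 (0.091 to 0.59) lie above 0. In Sham+pimobendan minus Sham+control all 10 points lie below 0, as do the whole intervals of Hspa8, Hsp90aa1 and Dnaja1. The intervals are not adjusted for the number of genes, and of all these values only Hsp90aa1 in TAC+pimobendan minus Sham+pimobendan was called.

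TAC+pimobendan was compared with Sham+pimobendan to ask how the heart under the drug differs with overload. None of the mice that chose the members is in these groups, and all 10 members were tested. Hsp90aa1 was higher under overload and was the only member called, 1 of 10 against 4.89% of all genes (4.64% higher and 0.245% lower). Hsp90aa1 and Dnaja1 were higher in all 3 TAC+pimobendan mice than in every Sham+pimobendan mouse, 2 of 10 against 18.6% of genes, and no member was lower without overlap, against 9.35%.

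Hsp90aa1 (NCBI Gene 15519; chr12:110691036-110697116) had 21.43, 34.13 and 37.12 FPKM in TAC+pimobendan, 24.95, 31.92 and 27.05 FPKM in TAC+control, 15.95, 14.66 and 16.77 FPKM in Sham+pimobendan, and 39.03, 24.74 and 19.54 FPKM in Sham+control. The 3 Sham+pimobendan mice were the lowest of the 12, and the other groups overlapped one another. Means were 30.9 ± 8.33 FPKM in TAC+pimobendan and 15.8 ± 1.06 in Sham+pimobendan (SD, n = 3 each), and the difference on the log2 scale was 0.89 ± 0.23 (SE), with a 95% confidence interval of 0.40 to 1.38 and a limma adjusted p of 0.0455. The call lay close to the threshold: the adjusted p ran from 0.00789 to 0.192 when single libraries were left out, stayed under the threshold in 3 of these 12 fits (without TAC+pimobendan mouse 1, Sham+control mouse 1 or Sham+control mouse 3) and not without any of the other 9, and was 0.0539 with median-ratio scaling, 0.0629 in a fit of these groups alone and 0.0836 with no filter. In the same comparison summed fibroblast markers (8 of 8 present) were at 444 to 536 FPKM in TAC+pimobendan and 353 to 416 FPKM in Sham+pimobendan. Single fibroblast markers were split, 4 above 0 and 4 below, with a median log2 fold change of -0.0073. Smooth muscle and pericyte markers (8 of 8) summed to 302 to 311 FPKM in TAC+pimobendan and 314 to 403 FPKM in Sham+pimobendan, with 3 above 0 and 5 below. Summed endothelial markers overlapped, with 3 of the 8 above 0, 5 below and a median of -0.30. Called lower were 2 endothelial and 1 smooth muscle and pericyte marker, against 0.245% of all genes, and none of either list was called higher. Of the 10 cardiomyocyte markers 2 were called higher, against 4.64% of genes, and none lower. Of that list 6 lay above 0 and 4 below, with a median of 0.065, and the summed levels overlapped. All 7 erythroid markers lay above 0, with a median of 0.76, but none was called and their summed levels overlapped. The part of these markers, and of the GC content described above, in the Hsp90aa1 value was not tested. The table lists Hsp90aa1 on the plus strand and GENCODE on the minus strand, and the counting is not stated to use strand, so reads of an antisense transcript could not be told apart.

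Dnaja1 (NCBI Gene 15502; chr4:40722468-40735080, plus strand) had 10.29, 11.74 and 15.37 FPKM in TAC+pimobendan, 16.19, 10.76 and 13.25 FPKM in TAC+control, 8.46, 7.58 and 9.78 FPKM in Sham+pimobendan, and 16.82, 13.23 and 8.90 FPKM in Sham+control. Its log2 fold change of TAC+pimobendan over Sham+pimobendan, 0.48 ± 0.21, did not pass (limma adjusted p = 0.192). Hspd1 (NCBI Gene 15510; chr1:55077637-55088217, minus strand) had 123.24, 153.51 and 159.60 FPKM in TAC+pimobendan, 129.78, 126.71 and 124.29 FPKM in TAC+control, 124.40, 105.15 and 113.41 FPKM in Sham+pimobendan, and 148.03, 114.24 and 119.01 FPKM in Sham+control. TAC+pimobendan mouse 1 overlapped the Sham+pimobendan mice, and the difference of 0.34 ± 0.11 did not pass (limma adjusted p = 0.0995) except without that mouse (0.0230).

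In the same comparison the HSP70 pair did not separate the groups. Hspa1a differed by -0.096 ± 0.71 (95% confidence interval -1.64 to 1.45; limma adjusted p = 0.954) and Hspa1b by 0.13 ± 0.73 (-1.45 to 1.71; 0.937). The shared estimate of spread holds the TAC+control mice, and the intervals leave room for differences of more than 1 on the log2 scale either way. Hspa8, Hsph1, Hsp90ab1, Dnajb1 and Hspb1 stood at -0.011, -0.010, -0.092, -0.11 and -0.25, with adjusted p of 0.428 or more. The median over the 10 members was -0.011, close to that of all genes, -0.0061.

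Sham+pimobendan was compared with Sham+control to ask what the drug changed without overload. All 10 members were lower on average, with a median log2 fold change of -0.26, where the median of all genes was 0.013 and 53.7% of genes lay above 0. The 10 stayed below 0 with every scaling tried, but 7 did without Sham+control mouse 2, and 9 without Sham+pimobendan mouse 1 or mouse 2. No member passed the test, and neither did any of the 11415 genes (0%), with a smallest adjusted p of 0.91 and 518 genes at an unadjusted p under 0.05. Hsp90aa1 was lower in all 3 Sham+pimobendan mice than in every Sham+control mouse, 1 of 10 members against 4.98% of genes, and no member was higher without overlap, against 6.16%.

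The largest of these tested values was that of Hsp90aa1, -0.72 ± 0.23 (95% confidence interval -1.21 to -0.23; limma adjusted p = 0.91), with 15.8 ± 1.06 FPKM in Sham+pimobendan and 27.8 ± 10.1 FPKM in Sham+control (SD, n = 3 each). Dnaja1 stood at -0.51 ± 0.21, with 8.61 ± 1.11 FPKM in Sham+pimobendan and 13.0 ± 3.97 FPKM in Sham+control, and Hspb1 at -0.37 ± 0.19. Hspa8 and Dnajb1 stood at -0.28 and -0.29, Hsph1 at -0.23, Hspd1 at -0.15 and Hsp90ab1 at -0.13. Hspa1a and Hspa1b stood at -0.035 ± 0.71 and -0.067 ± 0.73 (limma adjusted p = 0.996 and 0.994), with 95% confidence intervals of -1.58 to 1.51 and -1.64 to 1.51. For this pair the shared estimate of spread holds the high TAC+control mice, and the intervals leave room for differences of more than 1 on the log2 scale either way. Sham+control mice 1 and 2 were the higher ones in most members, and mouse 3 had the lowest Hspa1a, Hspa1b, Hspa8, Hspb1, Hsp90aa1, Hsp90ab1, Dnaja1 and Dnajb1 of its group as well as the lowest immediate early score; the part of handling in this was not tested.

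The interaction asks whether the overload difference depends on the drug, as (TAC+pimobendan minus Sham+pimobendan) minus (TAC+control minus Sham+control). None of the 8 tested members was called, and limma called no gene (0% of 11415), with 2312 at an unadjusted p under 0.05 and a smallest adjusted p of 0.0854. Hsp90aa1 had the largest tested value in size, 0.83 ± 0.32 (95% confidence interval 0.14 to 1.52; limma adjusted p = 0.172; 0.0490 without TAC+pimobendan mouse 1). Hspd1 stood at 0.33 ± 0.16 (adjusted p = 0.273) and Dnajb1 at -0.61 ± 0.64 (0.638). Hspa1a and Hspa1b, without a test, stood at -2.57 ± 1.01 and -2.61 ± 1.03. The drug comparison under overload and the overload comparison without drug share the TAC+control mice.

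Some members varied together across the 12 mice. The r values below are Pearson's over log2(FPKM + 1), given as descriptions; all points share the same libraries and the group structure. Where the 2 farthest mice are left out, they are those farthest from the median of the first-named gene. They can differ between pairs, 7 mice remain, and the range of that gene is narrowed. Hspa1a and Hspa1b had r = 0.956 (Spearman's rho 0.755), a value that includes the mice they were chosen for: it was 0.720 over the 9 mice outside TAC+control and 0.273 there without the 2 mice farthest from the median. Hspa1a and Dnajb1 had r = 0.862 (rho 0.930), 0.919 (rho 0.933) over the 9 mice outside TAC+control and 0.825 there without the 2 farthest mice. Hspa8 and Hspb1 had r = 0.896 (rho 0.923), 0.906 over those 9 mice and 0.772 without the 2 farthest. Hspa8 and Hsp90ab1 had r = 0.839 (rho 0.867) and 0.766 over the 9 mice, but 0.21 without the 2 farthest. Outside TAC+control the size of that r thus depends on the mice at the extremes of Hspa8. Hsp90aa1 and Dnaja1 had r = 0.808 (rho 0.853), 0.924 over the 9 mice and 0.824 without the 2 farthest. Hsp90aa1 also varied with Hspd1 (r = 0.840), Hspa8 with Dnaja1 (0.730) and Hspb1 with Dnajb1 (0.735). Outside TAC+control and without the 2 farthest mice, these were 0.791, 0.375 and 0.632. The relation of Hspa8 and Dnaja1 thus weakens without those mice. Over the 12 mice Hspd1 had r = 0.055 with Hspa8, -0.14 with Hspb1 and -0.33 with Hsp90ab1. Whether the members divide into separate sets was not tested. Over all 45 pairs of members r ran from -0.327 to 0.956 with a median of 0.385.

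**Figure D4:**
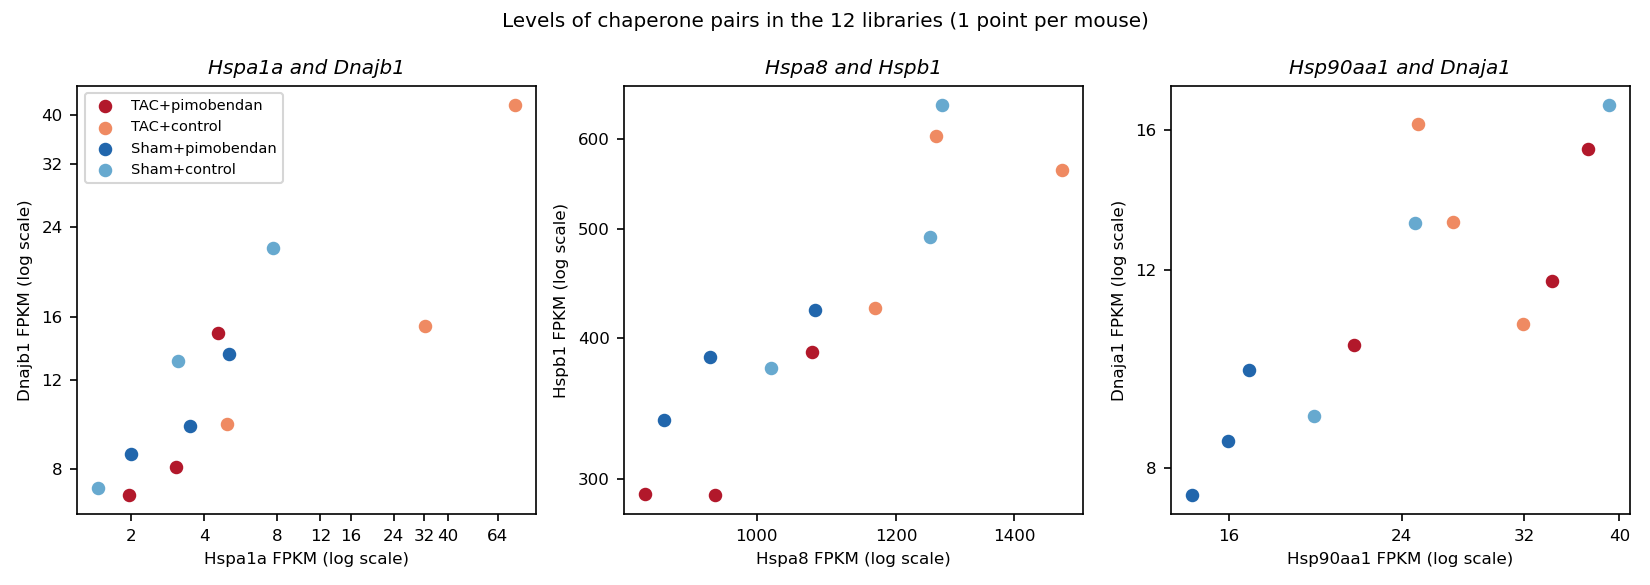
FPKM of pairs of chaperone genes in the same mouse, on log axes, with 1 point per mouse coloured by group (12 mice). Hspa1a and Dnajb1 go up together, with TAC+control mouse 3 at the top (75.67 and 41.71 FPKM) and TAC+control mouse 2 to the right of the other points (32.24 and 15.35 FPKM), Hspb1 is lowest in TAC+pimobendan mice 1 and 2 (290.46 and 290.55 FPKM), and the 3 Sham+pimobendan mice have the lowest Hsp90aa1.

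The genes most like the HSP70 pair were taken from the whole table, as a description that uses the TAC+control values by which the pair was chosen. Among tested genes with a mean of at least 5 FPKM in some group, the one most like the mean log2 level of Hspa1a and Hspa1b over the 12 libraries was Zfp799, a zinc finger gene, with r = 0.910 and rho 0.413. It had 2.47, 3.01 and 3.38 FPKM in TAC+pimobendan, 2.02, 7.16 and 7.39 FPKM in TAC+control, 2.61, 2.42 and 1.88 FPKM in Sham+pimobendan, and 2.76, 2.55 and 2.43 FPKM in Sham+control, so the same 2 mice were high. Zfp799, with means of 2.95 FPKM in TAC+pimobendan, 5.52 in TAC+control, 2.30 in Sham+pimobendan and 2.58 in Sham+control, met the minimum of 5 FPKM through TAC+control alone, as did Eefsec among the genes below. The next 9, with r from 0.721 to 0.762, were Prdx6, Rsrp1, Nudt22, Cox6b2, Acsf2, Pdlim3, Atf4, Plbd1 and Eefsec. Prdx6 encodes a peroxiredoxin and Atf4 the transcription factor of the integrated stress response. Without TAC+control mice 2 and 3, 0 of these 10 genes were again among the 10 most like the pair, so the likeness rests on those mice.

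For the other members the r of the most similar gene ran from 0.876 to 0.971. Hspd1 was most like Psmd12 (r = 0.971), a subunit of the proteasome, and Abcd3 (0.954), a peroxisomal transporter. Hsp90aa1 was most like Hspa4 (0.934), an HSP110 family gene, and Gtf2h1 (0.919), and Hsph1 most like P4ha1 (0.930), a prolyl hydroxylase of collagen, and Rnf121 (0.855). Hspa8 was most like Jmjd6 (0.912) and Nfil3 (0.909), and Dnaja1 most like Nus1 (0.903) and Zfp207 (0.879). Hspb1 was most like Cdip1 (0.884) and Klhl21 (0.874), and Klhl21 was also the gene most like Hsp90ab1 (0.887), followed by Tmem183a (0.829). Dnajb1 was most like Atf4 (0.876) and Sertad1 (0.864). Atf4, which is near both the HSP70 pair and Dnajb1, had 51.69, 55.67 and 78.25 FPKM in TAC+pimobendan, 64.19, 82.58 and 108.44 FPKM in TAC+control, 65.73, 47.07 and 64.89 FPKM in Sham+pimobendan, and 86.74, 79.54 and 60.36 FPKM in Sham+control.

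The rest of the chaperone system was read from lists of 95 other genes, of which 93 were tested: heat shock factors and regulators (8 tested), other HSP70 and HSP110 (11), other HSP90 and mitochondrial chaperones (8), small heat shock proteins (6), DNAJ co-chaperones (17), BAG and nucleotide exchange factors (8), HSP90 co-chaperones (21), and TRiC and prefoldin (14). In TAC+pimobendan minus TAC+control, 1 of the 93 rose and none fell (1.08%, against 3.27% of all genes). In TAC+pimobendan minus Sham+pimobendan, 5 rose and none fell (5.38%, against 4.89%). None was called in Sham+pimobendan minus Sham+control, in TAC+control minus Sham+control or in the interaction, where no gene of the table was called by limma either.

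In TAC+pimobendan minus TAC+control the gene that rose was Dnajc13, a DNAJ protein of endosomes, which averaged 5.85 ± 0.97 FPKM in TAC+pimobendan and 3.62 ± 0.29 FPKM in TAC+control (SD, n = 3 each), a log2 fold change of 0.56 ± 0.12 with a limma adjusted p of 0.0409. The 6 small heat shock protein genes were all below 0, with a median of -0.17, where the median of all genes was 0.095 and 66.0% of genes lay above 0. Hspb6 (HSP20), at -0.50 ± 0.13 (adjusted p = 0.0508), and Cryab, alpha B-crystallin, at -0.25 ± 0.076 (0.0712), had the smallest p of that list and did not pass. Cryab had 2293.69, 2288.62 and 2271.28 FPKM in TAC+pimobendan and 2634.98, 2774.55 and 2719.86 FPKM in TAC+control, with no overlap. Hspb6 and Hspb2 were also lower without overlap, while Hspb3, Hspb7 and Hspb8 overlapped, beside 6.64% of all genes lower without overlap. Hsp90b1 (GRP94) at 0.95 ± 0.27 (adjusted p = 0.0609), Hspa13 at 0.49 ± 0.14 (0.0602), Hspa14 at 0.25 ± 0.095 (0.124) and Hspa5 (BiP) at 0.37 ± 0.23 (0.317) did not pass either. Lists of HSP90 co-chaperones and of BAG factors had medians of -0.079 and -0.077, with Stip1 at -0.34, Fkbp4 at -0.32, Bag6 at -0.27 and Bag4 at 0.31. Bag3, a partner of HSP70 in muscle, stood at -0.24 ± 0.11 (adjusted p = 0.180), Hspe1, the HSP10 partner of Hspd1, at -0.19, Ep300 at 0.32 and Sirt1 at 0.44. TRiC and prefoldin genes had a median of 0.014, with Vbp1 at 0.49 and Pfdn6 at -0.24.

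In TAC+pimobendan minus Sham+pimobendan, the 5 that rose belong to the DNAJ, HSP90 co-chaperone and prefoldin lists. Ppid, a cyclophilin that binds HSP90, averaged 23.7 ± 2.66 FPKM in TAC+pimobendan and 16.9 ± 0.24 FPKM in Sham+pimobendan (SD, n = 3 each), a log2 fold change of 0.46 ± 0.11 with a limma adjusted p of 0.0384. Cacybp rose by 0.59 ± 0.16 (0.0497) and Vbp1, a prefoldin subunit, by 0.61 ± 0.16 (0.0473). Dnajc13 rose by 0.50 ± 0.12 (0.0386) and Dnaja2, a DNAJ partner of cytosolic HSP70, by 0.30 ± 0.077 (0.0455). Hspa13, at 0.50, Hspa4, at 0.33 (adjusted p = 0.0587), and Hsp90b1, at 0.83, did not pass, nor did Sirt1 at 0.40, Lonp1 at -0.17, Hspb6 at -0.27, Hspb2 at -0.17, Bag6 at -0.20 and Hspbp1 at -0.12. Like the calls of the members, these depend on settings: with no filter on low values, and in a fit of the compared groups alone, no gene of the table was called in either comparison.

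Hsf1 and Hsf2, the heat shock factors, did not pass in any comparison. Hsf1 had 23.65, 20.66 and 22.25 FPKM in TAC+pimobendan, 25.39, 21.80 and 23.30 FPKM in TAC+control, 19.31, 24.89 and 25.61 FPKM in Sham+pimobendan, and 23.21, 23.44 and 24.50 FPKM in Sham+control, and TAC+control mice 2 and 3 did not stand apart. Its log2 fold change was -0.079 ± 0.11 in TAC+pimobendan minus TAC+control (limma adjusted p = 0.678) and -0.058 in TAC+pimobendan minus Sham+pimobendan (0.775), and Hsf2 stood at 0.15 and 0.22 there. In the same TAC+control mice Bag3 had 183.33 and 185.78 FPKM, against 195.95 FPKM in TAC+control mouse 1.

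**Figure D5:**
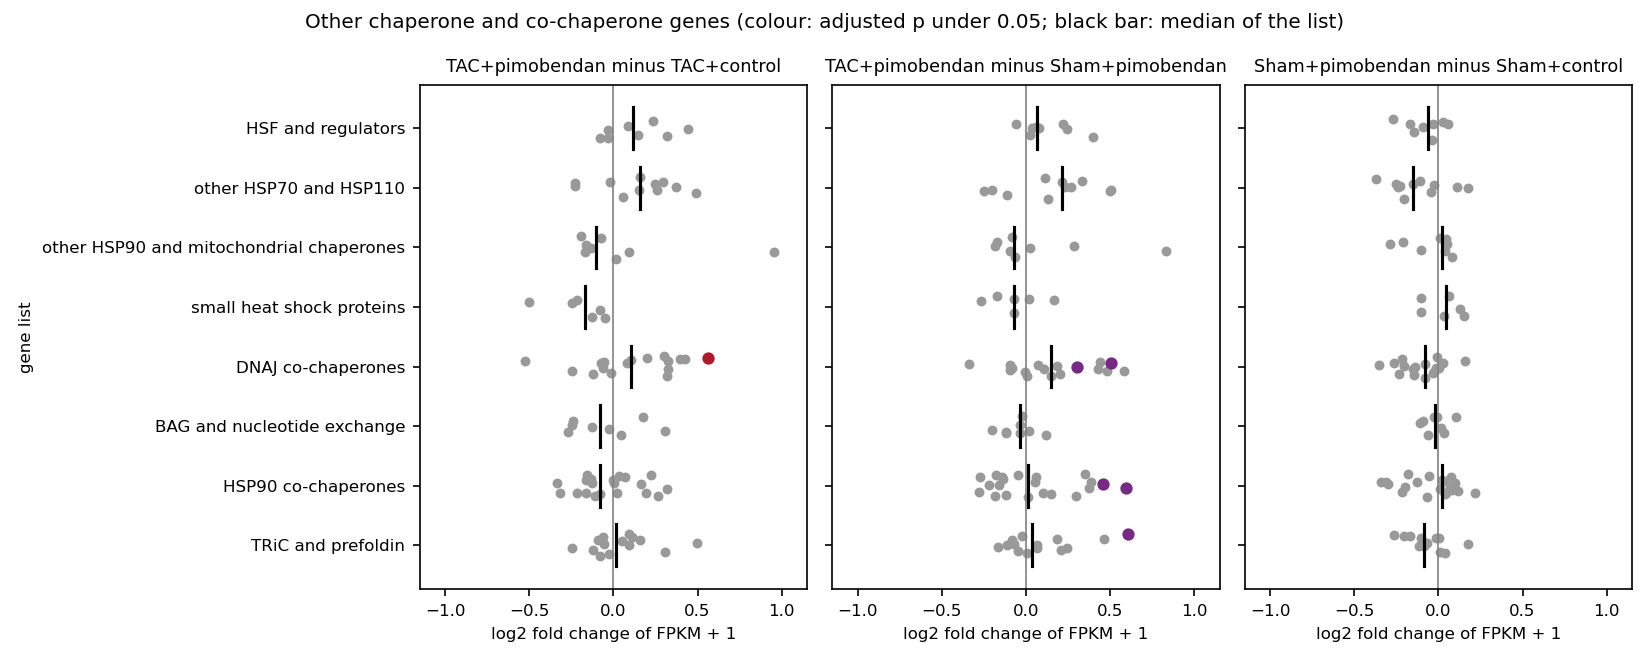
limma log2 fold changes of FPKM + 1 (horizontal axis) of the 93 tested genes of 8 chaperone lists (vertical axis) in 3 comparisons; each point is a gene, black bars are list medians and coloured points have an adjusted p under 0.05. The coloured points are 1 DNAJ gene in TAC+pimobendan minus TAC+control and 5 genes of the DNAJ, HSP90 co-chaperone and prefoldin lists in TAC+pimobendan minus Sham+pimobendan, all above 0, and the small heat shock protein genes lie below 0 in TAC+pimobendan minus TAC+control.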

How the data were processed

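Left ventricle RNA of 12 mice was purified with oligo(dT), primed with random hexamers and read on DNA nanoballs, per the labels. The authors deposited 1 table with FPKM and TPM values for 17052 genes, both rounded to 2 decimals. Per the submitters' processing notes the build was GRCm38 and the tools included RSEM 1.2.12, Bowtie2 2.2.5 and HISAT2 2.0.4, with no roles stated. Low values showed no steps of whole reads, so depth is unknown and no counting interval is given.

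limma 3.58.1 (R 4.3.3, trended and moderated variances) was run on log2 of the deposited FPKM plus 1. A single fit of all 12 libraries with 1 mean per group had 8 residual degrees of freedom. The script was tested on simulated data. Members and gene lists were chosen with earlier results of these data known. Named genes were the members, the genes with the highest Pearson r to them (10 for the HSP70 pair, 2 for each other member), and, of the chaperone lists, Hsf1, Hsf2, Bag3, Hspa5, Hspe1, Cryab, called genes and, where a list had no call, its 2 genes of smallest p; of these last only those of both comparisons with TAC+pimobendan are printed. Alternatives were TPM, median-ratio and quantile scaling, other filters and pseudocounts, the replicate number as a block, only the compared groups, and single libraries left out. GC content came from GENCODE M21 transcripts and was found for 11334 of 11415 tested genes.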

Additional observations from a re-analysis of the deposited data

How the results depend on the processing

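For TAC+pimobendan minus TAC+control, 373 genes and 0 of 8 tested members were called. There were 1110 and 1 (Hspb1) on the TPM scale, and 1 gene with median-ratio scaling, 0 with quantile normalization, 0 with no filter on low values and 0 with only the compared groups fitted. Leaving out single libraries gave 0 to 1190 genes and 0 to 1 members, and leaving out both TAC+control mice with high HSP70, chosen after seeing the data, gave 17 genes. For TAC+pimobendan minus Sham+pimobendan, 558 genes and 1 member (Hsp90aa1) were called. There were 298 genes and 0 members with quantile normalization, 0 members with median-ratio scaling, and 0 genes and 0 members with no filter or with only the compared groups; single libraries gave 0 to 1225 genes and 0 to 2 members, and leaving out both mice 214 genes and 0 members. The interaction had 0 calls, 0 to 773 genes and 0 to 1 members without single libraries and 2 genes without both mice. TAC+control minus Sham+control had 0 calls, 2 with only those groups, 0 to 4 without single libraries and 3 without both mice; its members above 0 numbered 4 to 10 without single libraries. Of the 10 genes most like the HSP70 pair, 4 were shared with median-ratio scaling, 1 to 8 without single libraries and 0 without both mice. The cause of these changes was not tested.

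Replicate numbers did not pair the mice: the deviations of 18 same-numbered pairs had r from -0.44 to 0.253, 4 of them over 0.1, and 1 library correlated best with its own number. With the replicate block, TAC+pimobendan minus TAC+control had 1 gene called and TAC+pimobendan minus Sham+pimobendan 0 genes and 0 members (Hsp90aa1 adjusted p = 0.0860 by limma).

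Members near 0 changed sign. In TAC+pimobendan minus Sham+pimobendan, Hspa8 was at 0.039 (TPM) and 0.12 (quantile) and Hsph1 at 0.038 (TPM). In the interaction, Hsph1 was at 0.067 (TPM), Hspa8 at 0.14 and Hsp90ab1 at 0.043 (quantile), and Dnajb1 at 0.25 without both mice. Without single libraries, TAC+pimobendan minus TAC+control gave -0.25 to 0.039 for Dnaja1 and -0.038 to 0.34 for Hsp90aa1. Sham+pimobendan minus Sham+control gave -0.46 to 0.44 for Hspa1a, -0.24 to 0.24 for Hspa1b and -0.65 to 0.073 for Dnajb1. TAC+pimobendan minus Sham+pimobendan gave -0.36 to 0.15 for Hspa1a, -0.094 to 0.069 for Hspa8, -0.41 to 0.072 for Dnajb1 and -0.16 to 0.13 for Hsph1, and the interaction -0.22 to 0.18 for Hsph1. Quantile normalization moved the median of all genes by -0.116 in TAC+pimobendan minus TAC+control and by -0.104 in the interaction.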
